A study of Mus musculus with 4 samples.

Results

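The genes described here encode the nuclear-encoded subunits of the mitochondrial respiratory chain and of ATP synthase, measured by RNA-seq in mouse CT26 tumours. They were chosen by symbol: every symbol starting with Ndufa, Ndufb, Ndufc, Ndufs, Ndufv, Uqcr, Atp5 or Cox4 to Cox8, together with Sdha, Sdhb, Sdhc, Sdhd and Cyc1, and without the Ndufaf assembly factors. This gave 87 of 22458 symbols in the expression table, with 38 in complex I, 4 in complex II, 9 in complex III, 19 in complex IV and 17 in complex V. The rule used no expression value. All tumours grew from CT26, a colon carcinoma line of the BALB/c mouse strain, made either IL-34-deficient or IL-34-overexpressing, and were either untreated or treated with an antibody against PD-1. Each of these 4 groups was 1 library, so no spread within a group exists and no pairwise difference below has a replicate check. The labels do not give the number of animals or clones behind a library, the time of treatment or the age of the mice, and no line with unaltered IL-34 was among the samples.

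Complexes I to IV pass electrons from NADH and succinate to oxygen and, except for complex II, pump protons across the inner mitochondrial membrane. Complex V, the ATP synthase, uses that proton gradient to make ATP. Most subunits are made from nuclear genes in every nucleated cell, while a few positions are filled by alternative isoforms with restricted expression, such as the muscle isoforms of cytochrome c oxidase. A smaller set of subunits is encoded by mitochondrial DNA, and those were not analysed here.

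IL-34 is a ligand of the CSF-1 receptor, and PD-1 restrains T cells. Il34 itself had FPKM values of 3.52 (untreated) and 3.02 (treated) with deficient cells and of 104 in both overexpressing libraries, in the direction of the labels. FPKM, the number of fragments scaled to transcript length and to the mapped fragments of the library, summed to between 486756 and 541738 over all symbols of a library, lowest in the treated deficient one. Relative depth, read from the smallest steps in the values, was 89.7% to 94.9% of the untreated deficient library in the other libraries. The treated deficient library stood apart in its markers. Summed FPKM of 7 T cell markers was 48.7 in the untreated and 114 in the treated deficient library. It was 38.1 in the untreated and 28.4 in the treated overexpressing library. That of 7 macrophage markers was 4096, 6854, 4126 and 3716 in the same order, most of it from Lyz2. Of these 7, 6 were higher in the treated than in the untreated deficient library. Cd14 was lower, at 51.7, 40.0, 44.0 and 47.9 FPKM. Mrc1 was highest in the treated overexpressing library, at 43.2, 48.6, 45.4 and 58.4 FPKM. Summed FPKM of 10 epidermal markers was 110 in the treated deficient library and 1.16 to 4.81 in the others, with 6 of the 10 at 0 in the untreated overexpressing library. Of 5 epithelial markers, Krt8 was at 0 in 2 libraries and Krt18 at 0 in 1, and the sum of the 5 ranged from 0.847 to 7.996 FPKM. Krt8, Krt18 and Krt19 were at 1.94, 2.29 and 2.74 FPKM in the untreated deficient library. In the others they were at 0.331 FPKM or less. Adipocyte markers summed to 41.7 to 72.1 FPKM and endothelial markers to 25.6 to 40.1 FPKM. Nearly all of the adipocyte sum was Fabp4, at 63.1, 41.2, 71.6 and 58.4 FPKM, while Adipoq, Cidec and Plin1 stayed at 0.251 FPKM or less.

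The respiratory chain genes were expressed at high and similar levels in all 4 libraries. Of the 87 genes, 84 reached 1 FPKM in at least 1 library and 74 had a mean of at least 20 FPKM. Their summed FPKM was 12061 in the untreated deficient library, 10971 in the treated deficient, 11601 in the untreated overexpressing and 11394 in the treated overexpressing library. The sum in the treated deficient library was 91.0% of that in the untreated deficient one, and the sums in the overexpressing libraries were 96.2% and 94.5% of it. As a share of all FPKM in the library, the same genes held 2.23%, 2.25%, 2.23% and 2.21%. For the set as a whole, the lower sum in the treated deficient library was therefore not a lower share of that library's FPKM. Complex V did have its lowest share there, at 0.685%, 0.664%, 0.696% and 0.676% in the same order. Complexes I to IV each had their highest share there.

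Levels varied little from library to library. Among the 74 genes with a mean of at least 20 FPKM, 54 (73.0%) stayed within a 1.2-fold range over the 4 libraries, against 60.8% of the 3844 genes of the table at that level. Within a 1.5-fold range were 72 of the 74 genes (97.3%), against 91.5% of all genes at that level. The narrowest range was that of Cox7b, a small subunit of complex IV, at 149, 150, 149 and 152 FPKM in the order given above. The exceptions to the 1.5-fold range were Ndufs5, a complex I subunit, and Cox7a2l, a factor that joins complexes III and IV into supercomplexes. In bulk tumour RNA, fewer cells of a type and less RNA per cell cannot be told apart, so these levels are averages over all cells of a tumour.

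**Figure D1:**
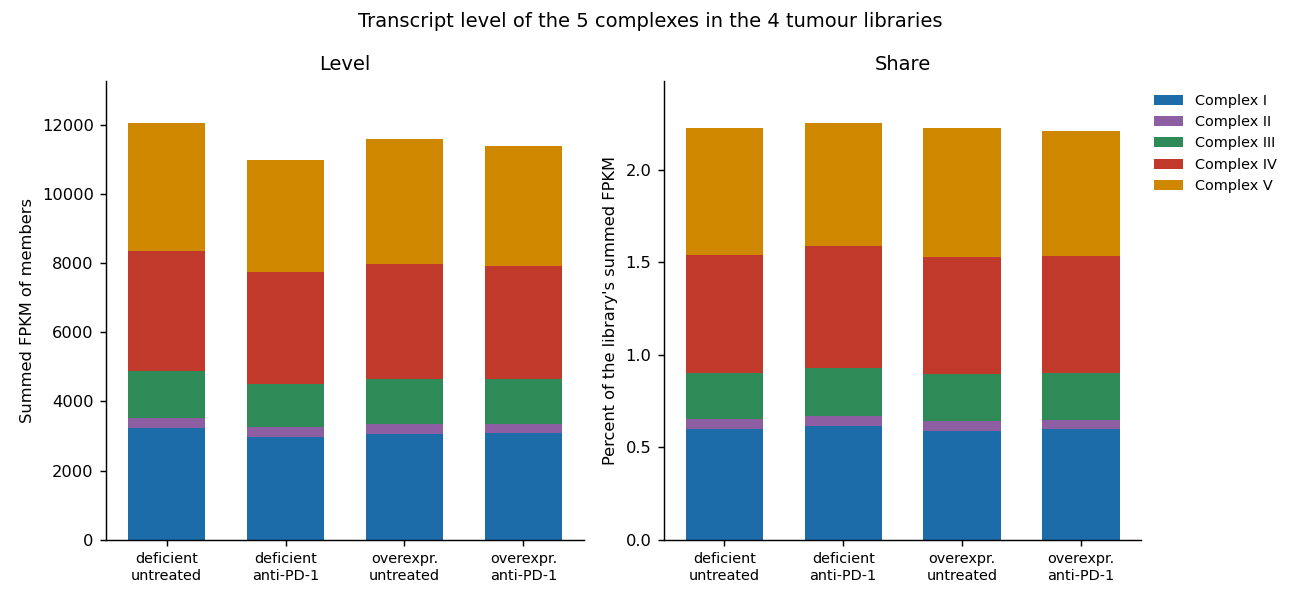
Stacked bars show the summed FPKM of the genes of each complex (left axis from 0) and their percent of the summed FPKM of the library (right axis from 0), with 1 library per group and no error bars. The summed level was lowest in the treated deficient library, at 10971 FPKM, while the share lay between 2.21% and 2.25% in all 4.

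Within a complex, transcript levels differed from subunit to subunit. Among the widely expressed subunits of complex I the mean over the 4 libraries ran from 10.05 FPKM for Ndufa11 to 223 FPKM for Ndufa12, a 22.2-fold span around a median of 73.3 FPKM. Complex II spanned 53.8 FPKM for Sdha to 93.8 FPKM for Sdhb. Complex III spanned 39.9 FPKM for Uqcrfs1, the Rieske iron-sulfur protein, to 261 FPKM for Uqcrb. Complex IV had the highest median, 323 FPKM, from Cox5a at 90.04 to Cox4i1 at 545 FPKM. Complex V had a median of 215 FPKM and held the most abundant transcript of the whole set, Atp5b, which encodes the catalytic β subunit, at a mean of 645 FPKM.

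The first comparison asked how tumours of deficient cells differed with anti-PD-1. Ratios are log2 of FPKM + 1 over genes with at least 1 FPKM in a library compared, a scale that understates differences of genes with low values. The median ratio of the chain genes was −0.13, with 68 of 84 below 0, while that of all 11675 genes tested was −0.06, with 59.8% below 0. At a mean of at least 20 FPKM the gap was narrower: the 74 chain genes had a median of −0.14 with 63 below 0 (85.1%), against −0.11 and 69.7% of the 3844 genes at that level. These directions rest on the scaling. With each library rescaled to TPM the median of the chain genes was 0.03 with 33 of 85 below 0, and the median of all genes moved from −0.06 to 0.09 with 34.4% below 0. Under scaling by the upper quartile or by median ratios it was −0.06 with 57 of 84 below 0 in each case, and 49.0% and 48.4% of all genes were below 0. The chain genes lay below the median of all genes by 0.07 as deposited and under TPM, and by 0.06 under both others. Each scaling multiplies a library by a constant, so apart from the added 1 and the minimum FPKM this gap was fixed in advance. Its likeness across scalings is therefore no added support.

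By size, 1 of 84 chain genes was higher and 1 lower by a log2 of at least 1, against 1.49% and 0.351% of all genes. At a log2 of at least 0.5 there were 2 higher and 2 lower, against backgrounds of 7.18% and 2.77%. These 4 were Cox8b, Cox6a2, Cox7a2l and Ndufa4l2, and 3 of them are isoforms with restricted expression. None of the 75 widely expressed structural subunits reached a log2 of 0.5 in any of the 4 pairwise comparisons.

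**Figure D2:**
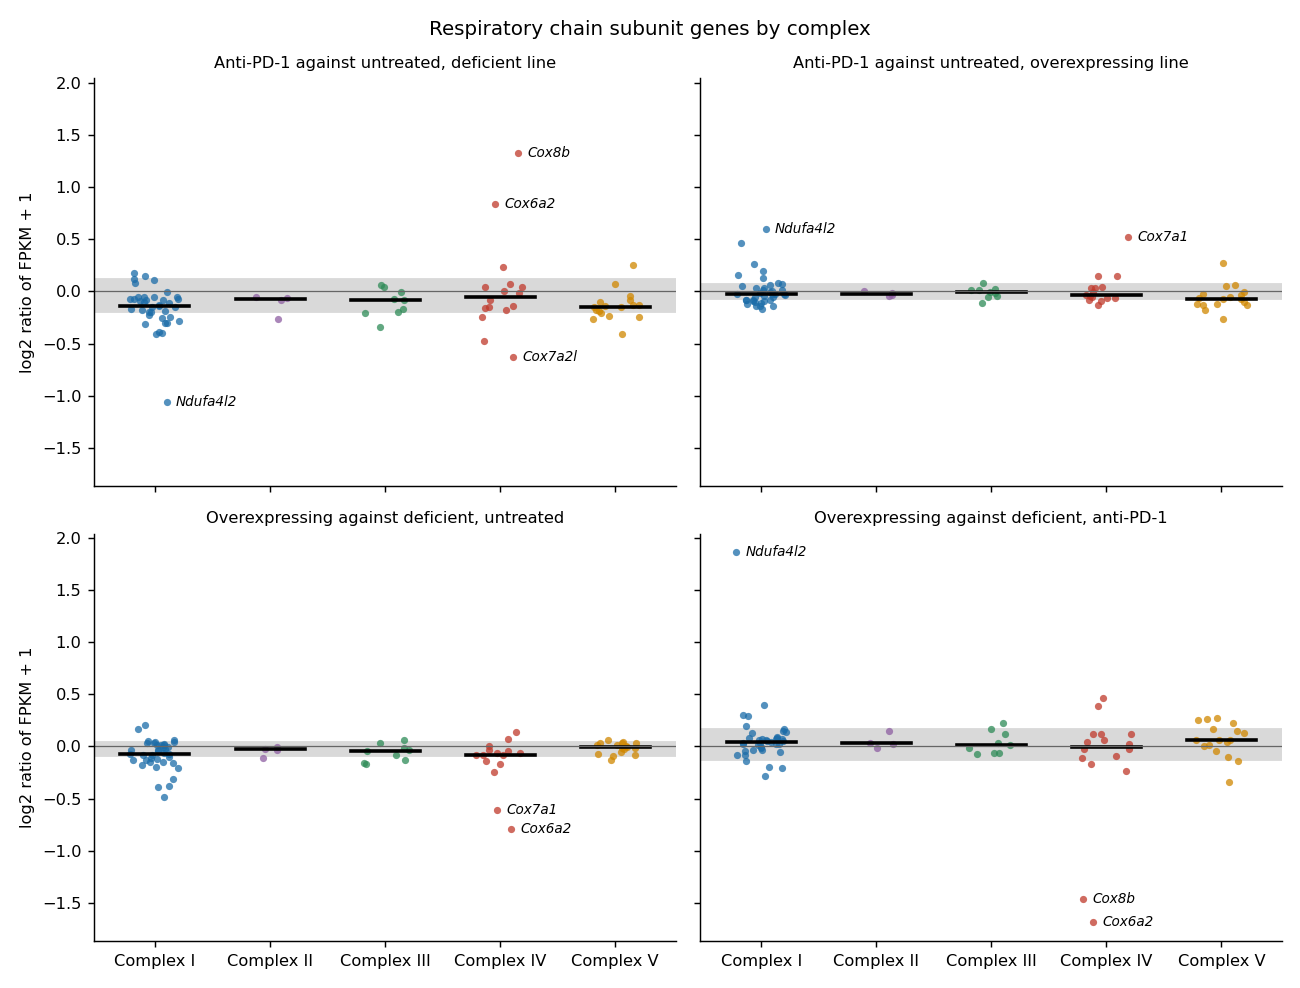
Each point is a gene's log2 ratio of FPKM + 1 in 1 pairwise comparison (panels), by complex. Black bars are medians over the genes of a complex and the grey band spans the middle quartiles of all genes. Points beyond 0.5 in size are named, and those of the deficient line are Cox8b at 1.32, Cox6a2 at 0.84, Cox7a2l at −0.63 and Ndufa4l2 at −1.06.

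By complex, the directions that follow are those of FPKM as deposited, and under TPM the medians in the deficient line were 0.015, 0.080, 0.072, 0.14 and 0.00516 for complexes I to V. Complex I, NADH dehydrogenase, had a median log2 ratio of −0.14 with anti-PD-1 in the deficient line, with 33 of 38 genes below 0. In that comparison 59.8% of all genes, and 69.7% of those with a mean of at least 20 FPKM, were below 0. These shares also apply to the counts of the other complexes that follow. Core subunits carry the flavin, the iron-sulfur clusters and the quinone site. Ndufv1, which binds NADH, had 47.7 FPKM in the untreated deficient, 39.8 in the treated deficient, 46.5 in the untreated overexpressing and 42.0 in the treated overexpressing library. Ndufs3, of the hydrophilic arm, was at 60.2, 48.5, 54.3 and 50.9 FPKM in that order. For both genes the untreated deficient library was highest and the treated deficient one lowest. Ndufs7 and Ndufs8, which hold iron-sulfur clusters near the quinone site, were at 46.8 to 67.6 FPKM and had ratios of −0.05 and −0.10 in the deficient line. Ndufs1 and Ndufv2, further core genes, had ratios of −0.11 and −0.31.

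Of the 30 other widely expressed complex I subunits, 25 were below 0, with a median of −0.12. The lowest ratio among them was that of Ndufa7, −0.41, at 105, 78.6, 108 and 96.4 FPKM. Ndufc1 was at 21.7, 16.4, 22.8 and 21.9 FPKM, a ratio of −0.38. For both, the treated deficient library was lowest. The 3 other values of Ndufc1 were close together, while Ndufa7 was also lower under treatment in the overexpressing line, with a ratio of −0.17. Ndufab1, the mitochondrial acyl carrier protein, was at 51.9 to 58.7 FPKM, with a ratio of −0.01.

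Complex II, succinate dehydrogenase, is made of 4 subunits, all nuclear-encoded. All 4 had ratios below 0 in the deficient line, with a median of −0.07. Sdha, the flavoprotein, was at 55.1, 51.9, 54.8 and 53.3 FPKM, and Sdhb, the iron-sulfur subunit, at 96.2, 92.8, 94.2 and 91.8 FPKM. Sdhc, a membrane anchor, was at 59.1 to 61.7 FPKM. The largest ratio in size was −0.26, for the other anchor, Sdhd, at 73.8, 61.4, 68.1 and 68.2 FPKM, with the treated deficient library lowest.

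Complex III, cytochrome bc1, had a median of −0.08, with 7 of 9 genes below 0. Uqcrh, the hinge protein, was at 271, 214, 247 and 249 FPKM, a ratio of −0.34. Cyc1, cytochrome c1, was at 92.3 to 98.0 FPKM, and Uqcrc1, a core protein, at 81.9 to 90.4 FPKM. Uqcrc2, the other core protein, had a ratio of −0.21 and Uqcrfs1 one of −0.17.

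Complex IV, cytochrome c oxidase, had a median of −0.05, with 9 of 16 genes below 0, and a mix of directions. Cox4i1, which helps regulate the enzyme, was at 583, 491, 570 and 535 FPKM, a ratio of −0.25. Cox6a1, the widely expressed form of subunit VIa, was at 442, 521, 428 and 441 FPKM, a ratio of 0.24. The treated deficient library was thus lowest for the first gene and highest for the second. Cox5b was at 326 to 384 FPKM with a ratio of −0.14, Cox6b1 at 377 to 434 FPKM with a ratio of −0.18, and Cox5a at 85.4 to 93.8 FPKM with a ratio of −0.02.

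Complex V had the largest shift in summed level, to 87.1% of the untreated deficient sum in the treated deficient library, against 92.3%, 92.5%, 92.6% and 93.2% for complexes I to IV. Its median ratio was −0.15, with 15 of 17 genes below 0. The 5 genes of the catalytic F1 head had a median of −0.18 and were all below 0. The 4 of the peripheral stalk, which holds the head still, had a median of −0.12. Atp5c1, the γ subunit that forms the rotating central stalk, was at 274, 206, 263 and 241 FPKM, a ratio of −0.41. Atp5b was at 691, 581, 655 and 653 FPKM, a ratio of −0.25. Atp5a1, the α subunit, was at 294, 259, 298 and 284 FPKM, a ratio of −0.18.

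The c ring, which turns as protons pass, has 1 protein made from 3 genes that differ in their import sequences. Atp5g2 supplied most of the transcript, at 382, 318, 361 and 354 FPKM, or 58.7%, 56.97%, 56.99% and 60.2% of the summed FPKM of the 3 genes. Atp5g3 was at 168, 142, 172 and 143 FPKM. Its level was lower under treatment in both lines, with ratios of −0.24 in the deficient and −0.27 in the overexpressing line. Atp5g1 stayed at 91.5 to 101 FPKM.

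The second comparison, anti-PD-1 against untreated in the overexpressing line, showed smaller differences. The median of the chain genes was −0.04, with 54 of 83 below 0, against −0.002 for all genes with 50.9% below 0. At a mean of at least 20 FPKM the chain genes had a median of −0.03 with 66.2% below 0, against −0.006 and 52.7% of all genes at that level. No chain gene was past a log2 of 1 in size, where 0.0525% of all genes were higher and 0.28% lower. At a log2 of at least 0.5, Ndufa4l2 and Cox7a1 were higher and none lower, against 0.736% and 0.946% of all genes. Medians were −0.02 for complex I, −0.02 for complex II, −0.004 for complex III, −0.04 for complex IV and −0.07 for complex V. Ndufa4, counted here with complex I by its name although it was later assigned to complex IV, was at 157, 151, 155 and 186 FPKM, a ratio of 0.26 in this line. Atp5k, a small membrane subunit of ATP synthase, was at 192, 175, 180 and 159 FPKM, a ratio of −0.17.

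The third comparison set untreated tumours of the 2 lines side by side. The chain genes had a median of −0.04 in overexpressing against deficient tumours, with 58 of 83 below 0, while all genes had a median of −0.03 with 60% below 0. At a mean of at least 20 FPKM the medians were −0.04 for both, with 71.6% of the chain genes and 69.7% of all genes below 0. Under TPM the median of the chain genes was 0.01, under the upper quartile 0.0006 and under median ratios −0.02. For all genes the medians were 0.03, 0.01 and −0.004 in that order. The direction of the chain median therefore rests on the scaling. No chain gene was past a log2 of 1, against 0.123% of all genes higher and 0.0963% lower. At 0.5, none was higher and Cox6a2 and Cox7a1 were lower, against 0.455% and 0.56% of all genes. Complexes I and IV had medians of −0.07 and −0.08, and complexes II, III and V had −0.03, −0.04 and −0.003. Ndufb2 and Ndufb6, small membrane-arm subunits, had ratios of −0.39 and −0.38. Ndufb2 was at 37.9, 28.5, 28.7 and 32.9 FPKM and Ndufb6 at 46.0, 37.7, 35.1 and 38.3 FPKM, so for both genes the untreated deficient library was highest and the 3 others lay closer together. Ndufab1 was higher by 0.17 and Cox6c, at 205 to 230 FPKM, by 0.14.

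The fourth comparison set the treated tumours side by side. Here the chain genes had a median of 0.04 in overexpressing against deficient tumours, with 55 of 84 above 0, against 0.04 and 56.8% for all genes. At a mean of at least 20 FPKM the medians were 0.04 for the chain and 0.06 for all genes, with 68.9% and 62.9% above 0. Under TPM the chain median was −0.05 with 59 of 85 below 0, against −0.05 and 58.6% for all genes. Under median ratios it was −0.01 for both. At a log2 of at least 1, Ndufa4l2 was higher and Cox6a2 and Cox8b were lower, that is 1 and 2 genes of 84, against 0.393% and 2.38% of all genes. At 0.5 the counts stayed at 1 and 2, against 2.16% and 7.7%. Cox7a2l had a ratio of 0.47 and Ndufc1 one of 0.40. Ndufa1, a small membrane subunit, was at 71.6, 78.0, 65.5 and 63.9 FPKM, a ratio of −0.28.

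The comparisons share libraries, and the treated deficient library enters both the first and the fourth. Of the 84 chain genes, 43 had their lowest value in the treated deficient library, against 45.8% of all genes, and 49 had their highest in the untreated deficient one, against 31.1% of all genes. The anti-PD-1 response of the overexpressing line minus that of the deficient line had a median of 0.09 over the chain genes, with 66 of 84 above 0, against 0.06 and 59.2% of all genes. At a mean of at least 20 FPKM the chain median, 0.09, was below that of all genes, 0.10, with 79.7% and 67.9% above 0. Under TPM the median over the chain genes was −0.05, against −0.08 for all genes. By size, 1 gene (Ndufa4l2) was at least 1 higher and 1 (Cox8b) at least 1 lower, against 0.527% and 2.18% of all genes, and 4 and 2 were past 0.5, against 3.69% and 7.77%. With 1 library per group this difference could not be tested.

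**Figure D3:**
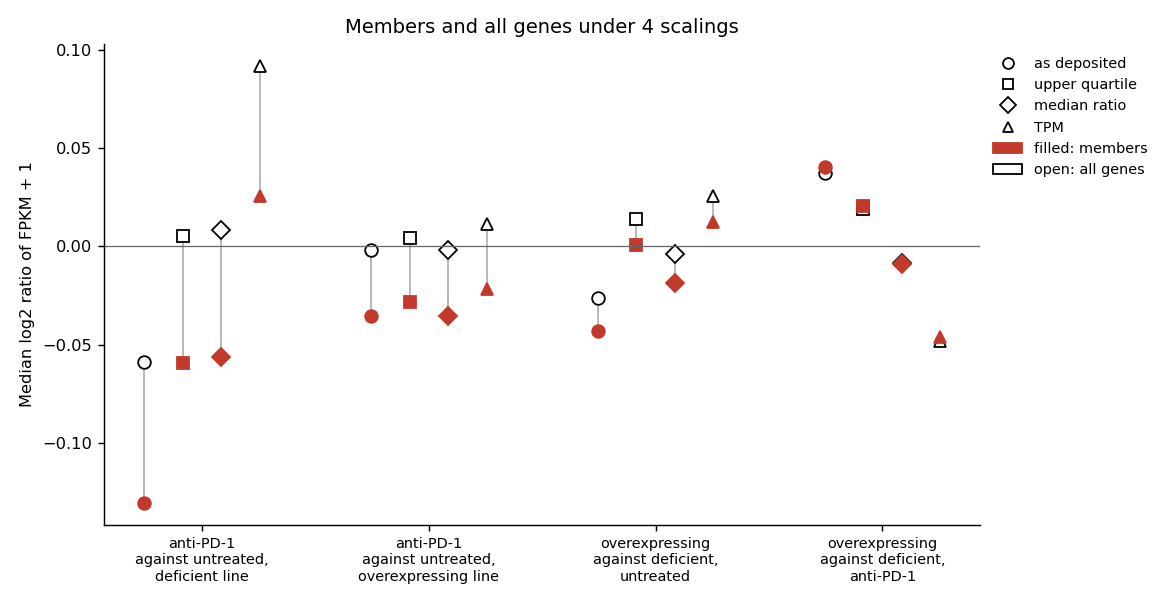
The median log2 ratio of FPKM + 1 is shown for the chain genes (filled) and for all genes (open) in the 4 pairwise comparisons under 4 scalings (symbols). Grey lines join the medians under 1 scaling. In the deficient line the median of the chain genes lay below that of all genes under each of the 4 scalings. Each scaling multiplies a library by a constant, so this gap could hardly change between them. The sign of the chain median was positive under TPM, at 0.03.

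The genes with the widest differences were isoforms of restricted expression. Cox6a2, the heart and skeletal muscle form of subunit VIa (mm10, chromosome 7, 128205435 to 128206366), had 3.13 FPKM in the untreated deficient, 6.37 in the treated deficient, 1.39 in the untreated overexpressing and 1.29 in the treated overexpressing library. Both deficient libraries were above both overexpressing ones. It was 2.04-fold higher with anti-PD-1 in the deficient line (log2 0.84), and 4.94-fold lower in overexpressing than in deficient tumours under treatment (log2 −1.69). Its model shares 69 bases with that of Itgad, which stayed at 0.101 FPKM or less. Cox6a1 made up nearly all of the pair, and Cox6a2 held 0.703%, 1.21%, 0.324% and 0.292% of the summed FPKM of both.

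Cox8b, the muscle and brown fat form of subunit VIII (chromosome 7, 140898942 to 140900446), had values of 0.645, 3.11, 0.919 and 0.489 FPKM, with the libraries in that order. It passed the minimum of 1 FPKM through the treated deficient library alone, so it had to differ in the comparisons that hold that library. It was higher there than in the 3 others, by 4.83-fold against the untreated deficient one (log2 1.32). The widely expressed form Cox8a was at 510, 456, 464 and 447 FPKM, and Cox8b never held more than 0.679% of the family. Cox7a1, the muscle form of subunit VIIa, did not follow these genes. It was at 4.65, 3.06, 2.71 and 4.33 FPKM, a ratio of −0.48 with anti-PD-1 in the deficient and of 0.52 in the overexpressing line. Its widely expressed counterpart Cox7a2 was at 86.4 to 95.2 FPKM.

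Skeletal muscle markers were, like Cox6a2 and Cox8b, at their highest summed level in the treated deficient library. The 15 markers had summed FPKM of 155, 505, 123 and 22.6 and median FPKM of 7.29, 22.3, 5.71 and 0.758, with none at 0. Acta1, skeletal α-actin, was at 55.3, 143, 39.0 and 3.27 FPKM, and Ckm, muscle creatine kinase, at 12.8, 45.0, 10.7 and 1.56 FPKM. All 15 had log2 ratios of at least 1 with anti-PD-1 in the deficient line, against 1.49% of all genes. In the overexpressing line, 10 of the 13 with at least 1 FPKM were lower by that size, against 0.28% of all genes. Cox6a2 had a ratio of −0.06 in that line. Their part in the values of Cox6a2 and Cox8b was not tested.

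Ndufa4l2, a relative of Ndufa4 whose transcription is raised by hypoxia-inducible factor (chromosome 10, 127514939 to 127517156), had values of 5.53, 2.12, 6.51 and 10.4 FPKM. It was lowest in the treated deficient and highest in the treated overexpressing library. It was 2.60-fold lower with anti-PD-1 in the deficient line (log2 −1.06), 1.59-fold higher in the overexpressing line (log2 0.60) and 4.88-fold higher in overexpressing than in deficient tumours under treatment (log2 1.86). Its share of the summed FPKM of Ndufa4 and Ndufa4l2 was 3.41%, 1.39%, 4.04% and 5.30%. The model overlaps that of Shmt2 by 34 bases, and Shmt2 was at 132 to 143 FPKM.

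Of 19 listed genes of glycolysis and the hypoxia response, 17 were also lowest in the treated deficient library, all but Hk2 and Pfkp. That library was lowest for 45.8% of all genes. In the deficient line, 19 of 19 listed genes were below 0 with anti-PD-1, against 59.8% of all genes, and their median was −0.62. Of them, 12 were lower by a log2 of at least 0.5 and 4 by at least 1, against 2.77% and 0.351% of all genes. In the overexpressing line the median was 0.11, with 15 of 19 above 0, against 49.1% of all genes. Car9, the hypoxia-induced carbonic anhydrase, was at 18.99, 4.89, 15.3 and 25.7 FPKM, Bnip3, a mitophagy receptor, at 95.2, 35.2, 70.6 and 81.5 FPKM, and Ldha, lactate dehydrogenase A, at 1025, 665, 874 and 919 FPKM. Their part in the level of Ndufa4l2 was not tested. Cox4i2, the isoform of subunit IV that is also raised by hypoxia and is most abundant in lung, was not lowest there, at 1.44, 1.57, 1.06 and 1.29 FPKM.

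**Figure D4:**
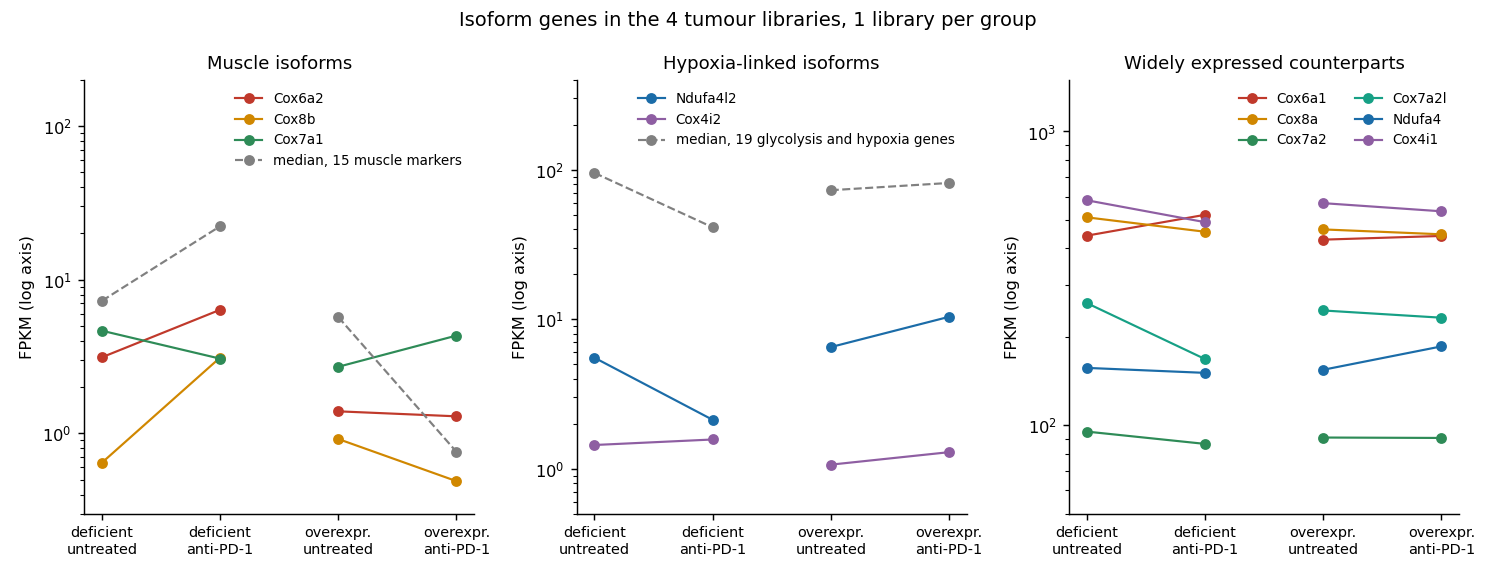
FPKM on a log axis is shown for muscle isoforms (left), hypoxia-linked isoforms (middle) and widely expressed counterparts (right), with 1 library per group. Solid lines join the untreated and treated library of a line, and dashed grey lines give the median FPKM of the 15 muscle markers and of the 19 glycolysis and hypoxia genes. Cox6a2 and Cox8b were highest in the treated deficient library, at 6.37 and 3.11 FPKM, where Ndufa4l2 was lowest, at 2.12 FPKM.

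Cox6b2, a testis form, was below 1 FPKM everywhere, at 0.213, 0.815, 0.225 and 0.317 FPKM. Cox7b2 and Cox8c, other testis forms, were listed at 0 in every library. Cox7a2l, which had the lowest ratio in the deficient line among chain genes above 100 FPKM, was at 260, 168, 246 and 232 FPKM. The treated deficient library alone was low, 1.55-fold below the untreated one (log2 −0.63). The remaining genes that carry a subunit's name without being one, Cox4nb (Emc8), Atp5s and Atp5sl, were at 1.90 to 10.2 FPKM, with ratios between −0.09 and 0.26 in the deficient line.

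Ndufs5 had the widest range among abundant chain genes, 1.59-fold, at 73.3, 82.7, 52.0 and 72.1 FPKM, with the untreated overexpressing library low. Its model on chromosome 4 (123712710 to 123718186) overlaps that of BC002163, a non-coding RNA, by 5452 bases, and BC002163 was at 6.87, 0.0148, 22.2 and 13.9 FPKM. The sum of both was 80.1, 82.7, 74.2 and 86.0 FPKM, a 1.16-fold range. This sum was taken after the values were seen. The division of reads between overlapping models is not described by the submitters' notes used here, and the value of Ndufs5 alone is uncertain. In all, 13 of the 87 genes overlap another gene model, and 9 have a processed pseudogene named after them in RefSeq, which could share reads.

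Promoter sequences from RefSeq (GRCm38.p6) were at hand for 70 of the 87 genes, each covering 250 bases before to 50 after the annotated start. They are shown for a few complex IV isoforms, 4 that hold a searched motif and Cox7a2, the counterpart of Cox7a1, that holds none. Cox5b, Cox6b2, Cox7a2l, Cox7b and Cox7c hold none either, and the widely expressed Cox5a holds the hypoxia response core. Each runs from 250 bases before the start to 20 after it on the gene's strand, in lower case, with searched motifs in capitals. In Cox6a1 (chr5:115348939-115349208, minus strand) the capitals mark an NRF1 motif, beginning 162 bases before the start, and an ETS motif, beginning 16 before it. In Cox8a (chr19:7217597-7217866, minus strand) they mark an ETS motif 5 bases before the start. In Cox8b (chr7:140900427-140900696, minus strand) they mark ACGTG, the core of the hypoxia response element, 111 bases before the start, and TATAAA 4 bases after it. In Cox7a1 (chr7:30183921-30184190, plus strand) they mark the hypoxia response core, 9 bases after the start. Cox7a2 is chr9:79759834-79760103, minus strand. The ETS and hypoxia response matches lie on the opposite strand and are therefore printed as CTTCCGG and CACGT.
Cox6a1: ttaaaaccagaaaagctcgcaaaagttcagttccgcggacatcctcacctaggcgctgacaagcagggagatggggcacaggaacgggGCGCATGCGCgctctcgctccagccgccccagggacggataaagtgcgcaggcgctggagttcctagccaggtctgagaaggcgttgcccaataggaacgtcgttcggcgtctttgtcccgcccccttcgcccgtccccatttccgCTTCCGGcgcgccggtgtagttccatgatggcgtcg
Cox8a: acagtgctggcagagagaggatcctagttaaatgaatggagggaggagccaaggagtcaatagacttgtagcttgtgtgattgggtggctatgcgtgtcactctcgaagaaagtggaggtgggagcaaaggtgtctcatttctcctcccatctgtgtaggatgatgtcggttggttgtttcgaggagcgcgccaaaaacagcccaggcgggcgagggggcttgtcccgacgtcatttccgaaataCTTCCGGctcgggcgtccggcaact
Cox8b: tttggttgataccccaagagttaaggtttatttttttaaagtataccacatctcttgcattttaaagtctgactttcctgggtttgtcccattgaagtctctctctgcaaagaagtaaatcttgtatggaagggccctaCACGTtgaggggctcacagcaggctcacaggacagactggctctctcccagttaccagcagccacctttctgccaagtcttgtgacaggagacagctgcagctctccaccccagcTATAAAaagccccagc
Cox7a1: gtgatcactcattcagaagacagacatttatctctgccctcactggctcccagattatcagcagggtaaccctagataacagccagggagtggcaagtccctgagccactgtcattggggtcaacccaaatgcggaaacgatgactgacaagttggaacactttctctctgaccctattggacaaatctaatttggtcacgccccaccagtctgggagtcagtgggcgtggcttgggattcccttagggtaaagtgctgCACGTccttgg
Cox7a2: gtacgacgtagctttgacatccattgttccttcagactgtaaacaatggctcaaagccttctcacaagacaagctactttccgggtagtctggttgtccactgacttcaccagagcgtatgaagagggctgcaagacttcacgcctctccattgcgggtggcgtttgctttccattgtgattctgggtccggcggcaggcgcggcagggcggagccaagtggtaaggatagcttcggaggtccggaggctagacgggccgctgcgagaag

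NRF1, GABPA (an ETS factor) and YY1 are transcription factors known to act on promoters of respiratory chain genes. Motif letters were searched on both strands of the whole 300 bases, and a match is a description of the sequence only. The palindromic NRF1 motif was in 5 of the 70 promoters (7.14%), against 1.07% of the promoters of 27025 genes. The ETS motif CCGGAAG was in 16 (22.9%), against 9.93%, and the YY1 motif AAGATGGCG in 8 (11.4%), against 1.64%. TATAAA was in 7 (10%), against 15.7%, and ACGTG in 19 (27.1%), against 21.8%. Of the YY1 matches, 5 were in complex I and 3 in complex V. Nrf1 was at 14.1, 12.1, 14.3 and 14.8 FPKM, Gabpa, whose model overlaps that of Atp5j, at 19.1, 15.7, 20.6 and 19.5 FPKM, and Tfam, which activates mitochondrial DNA transcription, at 7.61, 6.70, 7.92 and 7.72 FPKM. Each of these 3 was lowest in the treated deficient library, as were 8 of the 13 listed regulators, against 45.8% of all genes. Pprc1, a further listed regulator, was highest there, at 18.1, 21.3, 18.6 and 18.1 FPKM. Ppargc1a, a coactivator of mitochondrial biogenesis, stayed at 0.217 FPKM or less.

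Other nuclear genes for mitochondrial proteins had ratios close to those of the chain. With anti-PD-1 in the deficient line, 59.8% of all genes were below 0, with a median of −0.06. Of those with a mean of at least 20 FPKM, 69.7% were below 0, with a median of −0.11. In the same comparison, 16 citric acid cycle genes had a median of −0.13 with 15 below 0. The 76 genes of the mitochondrial ribosome had a median of −0.14 with 66 below 0. A list of cytochrome c, the carriers of ATP and phosphate and the outer-membrane channels Vdac1, Vdac2 and Vdac3 had a median of −0.15, with 6 of 7 below 0. Cycs, cytochrome c itself, was the gene above 0, at 0.12. Assembly factors had a median of −0.07 with 18 of 27 below 0, and regulators of mitochondrial transcription and biogenesis one of −0.11 with 10 of 12 below 0. None of these genes was past a log2 of 0.5 in that comparison. In the overexpressing line the medians of the 5 lists lay between −0.06 and −0.0007, against −0.002 for all genes.

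Cytosolic ribosomal protein genes, which are short and abundant like the chain genes, differed more. In the deficient line their median was −0.53. There 83 of 84 were below 0 and 50 lower by a log2 of at least 0.5, against 59.8% and 2.77% of all genes. They held 25.6% of all FPKM in the untreated deficient library, 19.8% in the treated deficient and 25.1% in each overexpressing library. Of the 54982 FPKM by which the library sum was lower in the treated deficient library, 76.7% came from these genes and 1.98% from the chain genes. As a share of the FPKM outside cytosolic ribosomal genes, the chain held 2.99%, 2.81%, 2.97% and 2.95%. With those genes set aside, the treated deficient library had the lowest share. The part of the ribosomal genes in the FPKM of the chain was not tested.

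Transcripts of the chain genes were short, with a median of 758 bases (315 to 4942), against 2810 bases for genes with at least 1 FPKM. In the deficient line, chain genes of up to 600 bases had a median ratio of −0.13 (24 genes), those over 600 and up to 1000 bases one of −0.14 (29 genes) and those over 1000 and up to 2000 bases one of −0.17 (22 genes). Other genes of the same 3 length classes, without cytosolic ribosomal ones, each had a median of −0.07. They were not matched to the chain genes in level. At a mean of at least 20 FPKM, over all lengths, the medians were −0.14 for chain genes and −0.11 for all genes. The 7 chain genes over 2000 and up to 4000 bases had a median of −0.083 against −0.055 for other genes. The 2 listed over 4000 bases had one of −0.065 against −0.053. Of these 2, Atp5g1 was assigned 4715 bases, more than its whole gene model spans (chromosome 11, 96072793 to 96075694). Its length, and so the median of that class, is not reliable.

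Effects over both lines or both treatments were tested with limma on all 11773 genes with at least 1 FPKM in a library, taking the interaction of line and treatment as the error, with 1 residual degree of freedom. At a Benjamini-Hochberg adjusted p below 0.05, limma called 0 of 84 chain genes for anti-PD-1, against 0% of all genes in either direction. It also called 0 for IL-34, against 0.00849% higher and 0% lower. At an unadjusted p below 0.05 there was 1 chain gene higher with anti-PD-1 (Ndufs5) and 0 lower, against 2.76% and 1.76% of all genes. For IL-34 there were 1 higher (Ndufa4l2) and 2 lower (Cox6a2 and Ndufs5), against 1.33% and 4.28%. The smallest adjusted p by limma among the chain genes was that of Cox6a2 for IL-34, 0.664, with a log2 effect of −1.24 ± 0.23 (SE) and lower values in both overexpressing libraries. Ndufa4l2 had a log2 effect of 1.03 ± 0.33 (SE) for IL-34, with an adjusted p by limma of 0.861. As the interaction counts as error, a gene that responds differently in the 2 lines is less likely to be called by this fit.

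The genes whose pattern was most like the mean of the chain over the 4 libraries, among 8092 others with at least 5 FPKM in each, were Ssr3, Tmem188, Esco2, Clcf1 and Eif2s1, each with a Pearson r of at least 0.999. With 4 libraries such values are a description. Ssr3, a subunit of the translocon-associated protein complex, was at 212, 191, 198 and 196 FPKM. Eif2s1, a subunit of translation initiation factor 2, was at 46.9, 41.7, 43.3 and 43.0 FPKM. Both were highest in the untreated deficient and lowest in the treated deficient library.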

How the data were processed

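The authors deposited 1 table of FPKM values with 23745 gene rows for the 4 libraries, made with Cufflinks 2.2.1, TopHat2 2.1.0 and CASAVA 1.8.2 on mm10, as the submitters' processing notes list them. Settings, including strand, were not given in those notes. Libraries were made with a strand-specific kit, per the labels' protocols. Fragment counts are not recoverable from FPKM, so no counting interval was computed. FPKM of all genes is lowered where a few transcripts take many reads.

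Of 23283 symbols, 825 of short RNAs were left out. Of several rows of 1 symbol, that with the highest mean was kept, and no chain gene had more than 1. Ratios used log2 of FPKM + 1 for genes with at least 1 FPKM in a library compared, and genes were counted at a log2 of at least 1 or 0.5. The additive limma fit (limma 3.58.1, R 4.3.3, with a mean-variance trend) was tested on simulated data. Other steps used Python 3.11.15, numpy 2.4.6, pandas 2.3.3 and matplotlib 3.10.9. Transcript lengths came from GENCODE transcripts matched by RefSeq accession, for 87 of 87 chain genes. The length matched to Atp5g1, 4715 bases, exceeds its gene model and is not reliable. Table starts were mostly 1 base below RefSeq, in 12011 of 21916 models compared, and coordinates are printed with 1 added.

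Genes were named by rule: isoform families, core subunits, the 2 most abundant genes of a complex, and the 3 highest and 3 lowest ratios of a comparison among genes with at least 5 FPKM in a library, with the 5 other genes most like the chain in pattern. Single values of 1 gene under this rule are not reported here. Others named were chosen after their values were seen, among them Ndufa11 and the listed markers and regulators. The members and lists were chosen with earlier results of these data known. Alternatives were the pseudocount, the minimum FPKM, 3 other scalings, summed rows and leaving out restricted isoforms or genes that are not subunits.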

Additional observations from a re-analysis of the deposited data

Results flagged for a closer look

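For 2 chain genes the log2 ratios with anti-PD-1 had opposite signs in the 2 lines and differed by at least 1, and with 1 library per group the difference was not tested. Cox8b had a ratio of 1.32 in the deficient and −0.37 in the overexpressing line, a difference of −1.69. Its FPKM was 0.645 and 3.11 in the untreated and treated deficient libraries and 0.919 and 0.489 in the overexpressing ones. It reached 1 FPKM in the treated deficient library alone, so it was not among the genes of the overexpressing comparison, and the sign of its ratio there, between values below that minimum, supports nothing. Summed FPKM of the 15 skeletal muscle markers was 155 and 505 in the deficient and 123 and 22.6 in the overexpressing libraries. Ndufa4l2 had ratios of −1.06 and 0.60, a difference of 1.66, at 5.53 and 2.12 FPKM in the deficient and 6.51 and 10.4 FPKM in the overexpressing libraries. The median of the 19 glycolysis and hypoxia genes was 95.2 and 41.2 FPKM in the deficient and 73.0 and 81.6 FPKM in the overexpressing libraries. The part of these marker genes in either difference was not tested.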

How the results depend on the processing

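Of 514 medians and counts recomputed under the alternatives, 460 stayed within a log2 of 0.1 or 1.5 times the count. Of 1929 values of single named genes, 131 moved by over 0.1, and none past a log2 of 1 changed sign. Summing rows could not change any value, as no chain gene had more than 1 row. It added 30 medians, 20 counts and 243 single values to those that stayed. The counts of chain genes called by limma were 0 under each alternative, which says nothing about stability in a fit with 1 residual degree of freedom. No paired analysis was possible because each group has 1 library.

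Under TPM the medians in the deficient line and of the difference of the responses changed sign. The medians in the deficient line were then 0.026 for all chain genes, 0.015 for complex I, 0.080 for complex II, 0.072 for complex III, 0.14 for complex IV and 0.00516 for complex V. The median of complex IV between treated tumours was −0.11. The difference of the responses was −0.051 for all chain genes, −0.013 for complex I, −0.092 for complex II, −0.051 for complex III, −0.079 for complex IV and −0.066 for complex V. The counts under TPM were 2 higher by 1 and 1 lower by 0.5 in the deficient line, 1 lower by 0.5 in the overexpressing line and, for the difference, 2 lower by 1, 2 higher by 0.5 and 4 lower by 0.5. That a library sum is fixed under TPM follows from its construction.

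The counts by size rested on genes of low level. With a pseudocount of 0.1 they were 2 higher by 1 in the deficient line, 1 lower by 1 between untreated tumours, and 2 higher and 2 lower by 1 for the difference. With a pseudocount of 5, 0 genes were past 1 in the deficient line, 0 lower by 1 between treated tumours, and 0 past 1 for the difference. At 0.5 that pseudocount gave 1 higher in the deficient line, 0 higher in the overexpressing line and 0 lower between untreated tumours. With a minimum of 5 FPKM, 0 were higher by 1 and 1 by 0.5 in the deficient line, 1 higher by 0.5 in the overexpressing line and 0 lower by 0.5 between untreated tumours. Between treated tumours 1 was lower by 1 and 1 by 0.5, and for the difference 0 were lower by 1 and 1 by 0.5. Without the 8 restricted isoforms every count was 0 except 1 lower by 0.5 in the deficient line (Cox7a2l) and 2 higher by 0.5 for the difference. Without the genes that are not subunits, 1 was lower by 0.5 in the deficient line.

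With 1 library per group and no fragment counts, neither biological nor counting error is known, so a ratio of the size seen for most chain genes was not distinguishable from variation between libraries.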
